A study of Mus musculus with 16 samples.

Results

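The genes described are Ms4a7, Ms4a4a, Ms4a4c, Ms4a6b, Ms4a6c and Ms4a6d of the membrane-spanning 4-domains A family, 6 genes named by symbol among the 24421 gene rows of the count data. They were chosen for the family they belong to, and with their measured values in these libraries known, so that their differences between the groups are given as descriptions. Calls of members in the fit of all genes are listed, but they are not read as tests of these genes. Rows were found for 5 of the 6 symbols. No row with the symbol Ms4a4a was used, and this gene was not analysed here. RNA came from CD45+ TER119- Kaede+ CD11b+ NK1.1- cells that were sorted alive from MC38-Ova tumours, a mouse colon adenocarcinoma line grown under the skin and carrying ovalbumin. The hosts were female C57BL/6 mice, 8 to 14 weeks old, with the Kaede transgene, which encodes a fluorescent protein that turns from green to red under violet light. Tumours were photoconverted on day 13 and taken 24h or 72h later, so that Kaede-red cells had been in the tumour when it was lit and Kaede-green cells were unconverted at harvest. The 4 groups were Kaede-green and Kaede-red at 24h and Kaede-green and Kaede-red at 72h, with 4 libraries each, and all of them carried the control label for treatment and had the same batch label. Converted cells keep some green fluorescence, the sorted population is defined by surface proteins and not by a single cell type, and the labels call it macrophages. By the study's description the libraries stand for tumours of separate mice, but the labels tie no library to a mouse, and whether a Kaede-green and a Kaede-red library of the same number share a tumour is not given.

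Ms4a proteins cross the cell membrane several times, with both ends of the chain inside the cell, and many of them sit next to receptors that signal through immunoreceptor motifs. The genes lie side by side in a cluster, and each blood lineage uses its own set: Ms4a1 encodes CD20 of B cells, Ms4a2 the beta chain of the IgE receptor of mast cells, and Ms4a3 is a gene of granulocyte and monocyte progenitors. Ms4a7 is known as a gene of macrophages, while Ms4a4c, Ms4a6b, Ms4a6c and Ms4a6d are known from monocytes, macrophages and, in part, lymphocytes. In macrophages, some Ms4a proteins have been tied to the β-glucan receptor dectin-1, encoded by Clec7a, and to the lipid receptor Trem2.

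The members lie on chromosome 19 of the mm10 build (GENCODE M21), within a cluster of Ms4a genes that spans 678.6 kb. Ms4a7 is at chr19:11321039-11336146 on the minus strand, Ms4a4c at chr19:11404770-11427246 and Ms4a6c at chr19:11469366-11482192 on the plus strand, Ms4a6b at chr19:11516512-11531256 on the plus strand, and Ms4a6d at chr19:11586604-11604849 on the minus strand. The 250 bases before the start of transcription are shown for the members whose direction is contrasted in what follows, read 5′ to 3′ on the strand of the gene from the RefSeq table of build GRCm38.p6, which had an entry for 5 of the 6 symbols. Ms4a6d is named only. Ms4a7 has 2 starts in that table. Capitals mark matches to the letters searched.
Ms4a7, first start, chr19:11336147-11336396: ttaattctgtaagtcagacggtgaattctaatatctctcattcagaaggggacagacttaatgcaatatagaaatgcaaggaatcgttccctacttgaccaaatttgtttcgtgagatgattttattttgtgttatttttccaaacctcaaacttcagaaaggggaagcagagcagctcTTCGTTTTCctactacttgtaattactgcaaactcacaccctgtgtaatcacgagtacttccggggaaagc
Ms4a7, second start, chr19:11334696-11334945: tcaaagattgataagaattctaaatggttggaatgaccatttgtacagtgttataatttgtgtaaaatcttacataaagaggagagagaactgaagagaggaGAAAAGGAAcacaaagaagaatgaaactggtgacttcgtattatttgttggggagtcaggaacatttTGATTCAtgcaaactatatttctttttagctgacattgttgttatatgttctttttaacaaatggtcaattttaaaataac
Ms4a4c, chr19:11407411-11407660: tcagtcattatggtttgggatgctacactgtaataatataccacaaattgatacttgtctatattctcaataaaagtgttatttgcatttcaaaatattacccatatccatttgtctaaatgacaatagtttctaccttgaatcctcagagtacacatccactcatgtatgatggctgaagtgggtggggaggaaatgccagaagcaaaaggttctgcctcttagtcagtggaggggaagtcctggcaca
Ms4a6c, chr19:11469118-11469367: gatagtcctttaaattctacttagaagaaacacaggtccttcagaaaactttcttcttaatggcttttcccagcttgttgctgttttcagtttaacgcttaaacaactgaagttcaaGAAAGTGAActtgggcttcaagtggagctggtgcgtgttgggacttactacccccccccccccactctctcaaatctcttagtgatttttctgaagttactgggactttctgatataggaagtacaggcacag
Ms4a6b, chr19:11518309-11518558: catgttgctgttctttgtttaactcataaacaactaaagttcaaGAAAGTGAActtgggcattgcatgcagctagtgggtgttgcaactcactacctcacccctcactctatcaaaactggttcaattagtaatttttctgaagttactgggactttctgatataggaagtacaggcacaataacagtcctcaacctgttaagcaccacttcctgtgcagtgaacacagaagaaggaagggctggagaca
The letters GAAANNGAA, a short form of the interferon-stimulated response element, occurred on 1 strand or the other before both starts of Ms4a7 and before Ms4a6c and Ms4a6b. They did not occur in the 250 bases before Ms4a4c, and 7.13% of 32851 windows of this length in the table hold them. In Ms4a6c they lay from -133 to -125 and in Ms4a6b from -206 to -198, with the same 9 letters. The AP-1 letters TGANTCA, found in 6.75% of all windows, lay from -81 to -75 before the second start of Ms4a7 and did not overlap the other match. The letters GAGGAAGT of PU.1 (2.44% of windows), TTCNNNGAA of the gamma-activated site (7.02%), TTGCNNAA of C/EBP (9.56%) and TGCTGA of a MAF site (16.1%) were also searched on both strands and were not in the windows printed. The member that was higher in Kaede-red cells and members that were lower both held GAAANNGAA. Matches of letters are a description of these windows and say nothing of binding.

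Reads of close relatives could be assigned to the wrong member, so the coding sequences were compared in the GENCODE transcripts. The coding part of Ms4a6b was 85% identical to that of Ms4a6c and 79.5% identical to that of Ms4a6d, and Ms4a6c and Ms4a6d were 76.3% identical. Ms4a4c was 91.8% identical to its neighbour Ms4a4b, which is no member of the list. Ms4a7 stood apart, with 44.5% to 52.6% identity to the others. The stretch of 90 coding bases in which Ms4a6b, Ms4a6c and Ms4a6d are most alike is shown with the 6 positions that tell them apart in capitals, from base 100 to base 189 of each coding sequence.
Ms4a6b: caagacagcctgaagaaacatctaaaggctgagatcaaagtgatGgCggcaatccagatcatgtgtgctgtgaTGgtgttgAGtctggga
Ms4a6c: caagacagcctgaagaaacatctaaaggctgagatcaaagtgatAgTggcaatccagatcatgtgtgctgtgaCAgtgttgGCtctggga
Ms4a6d: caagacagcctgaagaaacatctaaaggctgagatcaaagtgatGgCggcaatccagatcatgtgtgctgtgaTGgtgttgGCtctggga
Between Ms4a4b and Ms4a4c the most alike stretch, from base 321 to base 410 of both coding sequences, held no difference and reads as follows.
Ms4a4b and Ms4a4c: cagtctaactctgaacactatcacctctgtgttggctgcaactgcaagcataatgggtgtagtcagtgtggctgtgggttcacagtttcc
Of all runs of 100 bases in the main transcript of each gene, 1.72% in Ms4a4c occurred in another gene, and in Ms4a6c 0.574% did. No run of this length in Ms4a7, Ms4a6b or Ms4a6d was shared with another gene. At 50 bases the shared part was 8.48% in Ms4a4c, 5.89% in Ms4a6b, 11.3% in Ms4a6c, 2.92% in Ms4a6d and 0% in Ms4a7. Reads were 2 × 150 bases by the study's methods. How the counting treated fragments that fit 2 members is not given in the sources used here, and reads shared by Ms4a4c and Ms4a4b make the values of both uncertain.

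Depth differed between the colours. Counts outside Rn45s, the ribosomal RNA precursor, ranged from 468092 to 912689 in Kaede-green and from 758192 to 5472477 in Kaede-red libraries. Rn45s took 79.0% to 93.4% of the counts in the former and 55.8% to 84.9% in the latter. Total counts differed too, at 3650937 to 10823666 (median 6037287) in Kaede-green and 3216858 to 15423085 (median 8209075.5) in Kaede-red libraries. Values are given as CPM, read counts relative to the TMM-scaled library size, in which 1 CPM stood for 1.793 counts in the shallowest and 47.49 counts in the deepest library. All 5 members with a row passed the filter on low counts, and the fewest reads of any member in any library were the 41 of Ms4a7 in Kaede-green 24h replicate 1. In bulk RNA, fewer cells of a type and less RNA per cell cannot be told apart. Members had 2343 to 5029 summed counts in Kaede-green 24h, 5495 to 13511 in Kaede-red 24h, 2552 to 4295 in Kaede-green 72h and 4628 to 28395 in Kaede-red 72h libraries.

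Ms4a7 was the member with higher levels among Kaede-red cells. In the 24h samples it was at 22.9, 19.7, 22.2 and 20.4 CPM in the Kaede-green replicates 1 to 4. In the Kaede-red replicates at 24h it was at 74.7, 108, 108 and 98.9 CPM. The groups did not overlap, and the lowest Kaede-red library was above 3 times the highest Kaede-green library. Means were 21.3 ± 1.48 and 97.4 ± 15.7 CPM (SD, n = 4 each), and the fitted log2 fold change was 2.19 with a standard error of 0.23, or 4.57-fold. At 72h the Kaede-green replicates were at 17.5, 36.9, 37.9 and 36.9 CPM. Kaede-red replicates at 72h were at 42.3, 58.1, 49.2 and 36.9 CPM. These groups touched at 36.9 to 37.9 CPM, with means of 32.3 ± 9.88 and 46.6 ± 9.13 CPM, and the log2 fold change was 0.52 with a standard error of 0.21. The difference between the colours was thus smaller at 72h, with a change of the log2 difference of -1.68 (standard error 0.31). In Kaede-red cells Ms4a7 was lower at 72h than at 24h by a log2 fold change of -1.06 (standard error 0.21), with no overlap of the libraries. In Kaede-green cells it differed by 0.61 (standard error 0.23), a change that was not called, with replicate 1 at 72h below all 24h libraries and the other 3 above them.

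**Figure D1:**
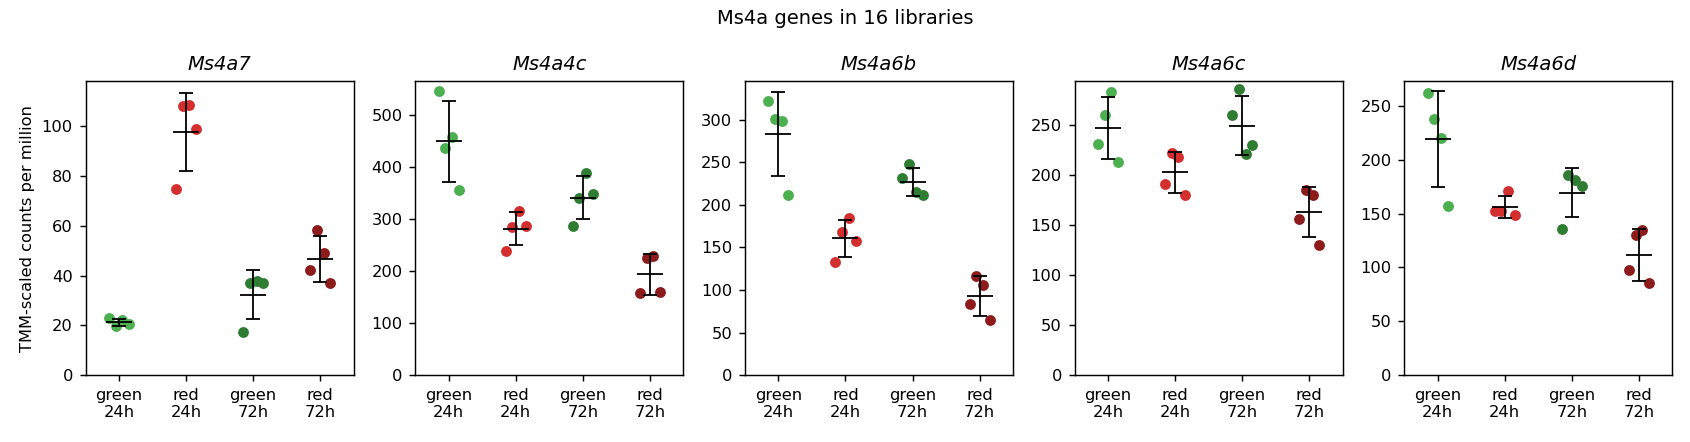
TMM-scaled CPM of Ms4a7, Ms4a4c, Ms4a6b, Ms4a6c and Ms4a6d in each of 16 libraries, by Kaede colour and hours after photoconversion; points are libraries, and lines with bars are the mean ± SD of 4 libraries. Ms4a7 is highest in Kaede-red 24h (74.7 to 108 CPM), whereas the other genes are lowest in Kaede-red 72h.

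Ms4a4c was the most abundant member and was lower in Kaede-red cells. Kaede-green replicates 1 to 4 were at 545, 436, 458 and 356 CPM at 24h and the Kaede-red replicates at 238, 286, 315 and 287 CPM. At 72h the Kaede-green replicates were at 288, 340, 389 and 348 CPM and the Kaede-red replicates at 159, 226, 230 and 160 CPM. The colours did not overlap at either time, although Kaede-green 72h replicate 1 was within the range of Kaede-red 24h. The log2 fold change was -0.67 (standard error 0.20) at 24h and -0.82 (standard error 0.20) at 72h, with means of 449 ± 77.9 against 282 ± 31.9 CPM and of 341 ± 41.7 against 194 ± 39.6 CPM.

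Ms4a6b had the widest gap between the colours among the members that were lower in Kaede-red cells. Kaede-green replicates 1 to 4 were at 322, 301, 298 and 211 CPM at 24h, where the Kaede-red replicates were at 133, 168, 184 and 158 CPM. At 72h the Kaede-green replicates were at 232, 248, 215 and 212 CPM and the Kaede-red replicates at 83.3, 117, 106 and 65.0 CPM. All 8 Kaede-red libraries were below all 8 Kaede-green libraries. The log2 fold change was -0.82 (standard error 0.20) at 24h and -1.29 (standard error 0.21) at 72h, a fitted level in Kaede-red cells of 0.409 times that in Kaede-green cells (means of 92.9 ± 23.2 and 227 ± 16.8 CPM). Within Kaede-red cells it was lower at 72h than at 24h, by a log2 fold change of -0.79 (standard error 0.20).

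Ms4a6c, the closest relative of Ms4a6b in coding sequence, differed less. At 24h it was at 231, 261, 283 and 213 CPM in Kaede-green and at 191, 222, 218 and 181 CPM in Kaede-red replicates, so that the groups overlapped (log2 fold change -0.28, standard error 0.19). At 72h it was at 260, 286, 222 and 230 CPM in Kaede-green and at 156, 185, 180 and 131 CPM in Kaede-red replicates, without overlap (log2 fold change -0.61, standard error 0.19). The Kaede-green means were 247 ± 30.9 CPM at 24h and 249 ± 29.7 CPM at 72h, a log2 fold change with time of 0.01 (standard error 0.19).

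Ms4a6d followed Ms4a4c at a lower level. At 24h it was at 262, 238, 220 and 157 CPM in Kaede-green and at 153, 152, 171 and 148 CPM in Kaede-red replicates, which overlapped because of Kaede-green replicate 4. At 72h it was at 136, 186, 181 and 176 CPM in Kaede-green and at 97.5, 130, 135 and 85.5 CPM in Kaede-red replicates, so that the lowest Kaede-green library was just above the highest Kaede-red library. The log2 fold change was -0.49 (standard error 0.20) at 24h and -0.60 (standard error 0.20) at 72h.

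Over both times together, 1 of the 5 members passed an adjusted p of 0.05 as higher in Kaede-red cells, where 10% of the 9642 tested genes did, and 4 as lower, where 10.3% did. Without overlap below the Kaede-green libraries at both times was 1 member, Ms4a6b, against 1.74% of the tested genes. At 24h, 1 member was called higher (3.22% of genes) and 2 lower (4.28%), while 1 lay without overlap above (7.09%) and 2 below (5.43%). At 72h, 4 were called lower (8.76%), and the same 4 lay without overlap below (9.52%). From 24h to 72h, 2 members were called lower in Kaede-red cells (3.76%), or 4 with DESeq2, which also called Ms4a4c and Ms4a6d, and 4 had no overlap (8.76%), and in Kaede-green cells no member was called in either direction, nor was any other gene (0% higher and 0% lower with edgeR, 835 genes at an unadjusted p under 0.05 and 13 calls with DESeq2). For the change of the colour difference with time, 1 member, Ms4a7, was called lower (0.332%). Since the members were chosen with these values known, nothing is read from the counts. The median log2 fold change over both times was -0.55 over the 5 members and 0.06 over all tested genes.

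**Figure D2:**
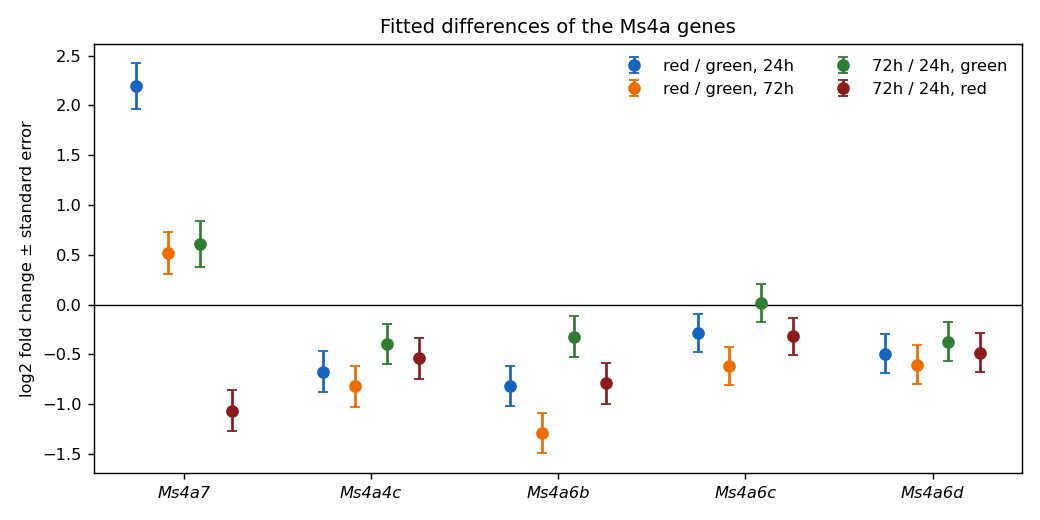
Fitted log2 fold changes of the 5 genes, with standard errors as bars, for Kaede-red over Kaede-green at 24h and 72h and for 72h over 24h within each colour. Ms4a7 is above 0 in both colour comparisons, and Ms4a4c, Ms4a6b, Ms4a6c and Ms4a6d are below 0 in both. With time, the fitted values of Ms4a7 are of opposite sign in the 2 colours, and the change in Kaede-green cells was not called.

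The direction of the 4 lower members rests on the scaling. Scaled by total counts alone, with Rn45s included, the median of all genes was 2.20 log2 units higher in Kaede-red cells, and Ms4a4c, Ms4a6b, Ms4a6c and Ms4a6d took values of 1.35, 1.04, 1.68 and 1.54 over both times, all under that median, whereas Ms4a7 took 3.45. Scaled to the counts outside Rn45s, Lars2 and Mir6236 without TMM, the values were -0.54, -0.85, -0.25 and -0.34, and 1.56 for Ms4a7, beside a median of all genes of 0.24. In that fit 1821 genes were called higher and 635 lower over both times, against 969 and 990 after TMM scaling. For 24h alone it put Ms4a4c at -0.43 and Ms4a6c at -0.05. With Rn45s alone left out, the 5 members, Ms4a7 included, summed to 0.488% to 0.551% of counts for Kaede-green 24h. For Kaede-red 24h the sum was higher without overlap, at 0.631% to 0.753%. The 72h ranges overlapped, at 0.393% to 0.550% (Kaede-green) and 0.387% to 0.544% (Kaede-red). A lower level is thus not shown for the sum on this base, and single members were not computed on it. With the Rn45s share as a covariate, the log2 fold changes over both times were 1.54 for Ms4a7, -0.56 for Ms4a4c, -0.78 for Ms4a6b, -0.32 for Ms4a6c and -0.41 for Ms4a6d. All had the sign they had without it, while the number of members called went from 5 to 1 and that of all genes called from 1959 to 156. The Rn45s share itself went largely with the colours, at 79.0% to 93.4% in Kaede-green and 55.8% to 84.9% in Kaede-red libraries. This fit can therefore hardly tell share and colour apart, and a call lost in it says little of a gene.

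Proportions within a library do not depend on scaling. Ms4a7 made up 1.77% ± 0.25 of the members' summed counts in Kaede-green 24h, 10.8% ± 0.93 in Kaede-red 24h, 3.14% ± 0.85 in Kaede-green 72h and 7.68% ± 0.47 in Kaede-red 72h libraries (SD, n = 4 each). Its lowest share in a Kaede-red library was 7.02% and its highest in a Kaede-green library 3.68%, so the colours did not overlap at either time. For each count of Ms4a7 there were 21.0 ± 2.75 counts of Ms4a4c in Kaede-green 24h and 2.91 ± 0.22 in Kaede-red 24h libraries, and 11.3 ± 3.41 and 4.17 ± 0.42 at 72h. The Ms4a6 genes shifted among themselves as well. There were 0.886 ± 0.13 counts of Ms4a6c for each count of Ms4a6b in Kaede-green 24h, 1.27 ± 0.13 in Kaede-red 24h, 1.10 ± 0.05 in Kaede-green 72h and 1.79 ± 0.19 in Kaede-red 72h libraries. The lowest Kaede-red ratio, 1.15 at 24h, lay above the highest at 24h in Kaede-green cells, 1.01, and the same held at 72h with 1.59 and 1.15. Ms4a6d kept closer to Ms4a4c, with 0.487 ± 0.04, 0.558 ± 0.06, 0.497 ± 0.04 and 0.576 ± 0.03 counts per count of Ms4a4c in the same order of groups.

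**Figure D3:**
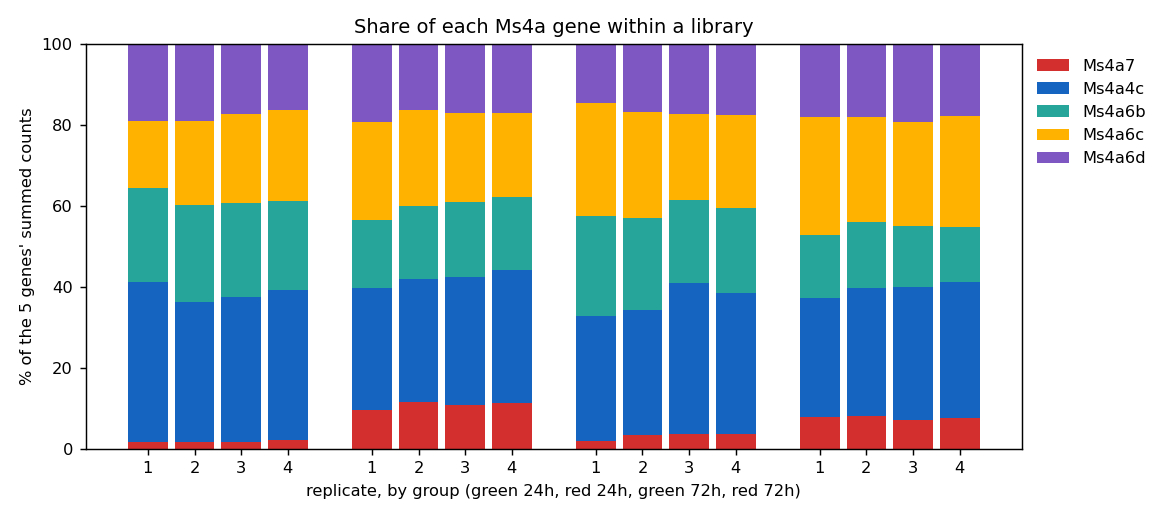
Share of each gene in the summed raw counts of the 5 Ms4a genes, in percent, with 1 bar per library and 4 libraries per group. The Ms4a7 segment is 1.57% to 3.68% in Kaede-green and 7.02% to 11.5% in Kaede-red libraries.

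Levels were also compared per kilobase of all annotated exons of a gene, which come to 4453 bases for Ms4a7 and 4485 for Ms4a6b. At these lengths the order was Ms4a4c first and Ms4a7 last in every group. The main transcripts compared above are shorter, at 1576 bases for Ms4a7 and 2680 for Ms4a6b. The order of genes therefore depends on the length used, and levels per kilobase of transcript were not computed. In Kaede-green 24h cells Ms4a4c was at 256 ± 44.5 CPM per kb, Ms4a6d at 126 ± 25.7, Ms4a6c at 121 ± 15.1, Ms4a6b at 63.1 ± 10.9 and Ms4a7 at 4.78 ± 0.33. Ms4a6d and Ms4a6c did not differ beyond their spread there, and their order varied between the libraries. In Kaede-red 24h cells the levels were 161 ± 18.2, 89.9 ± 5.84, 99.1 ± 9.99, 35.8 ± 4.78 and 21.9 ± 3.53 CPM per kb for the same genes. There the ranges of mean ± SD of Ms4a6d and Ms4a6c met, but within each library Ms4a6c was above Ms4a6d at these lengths. In Kaede-green 72h cells Ms4a4c was at 195 ± 23.8, Ms4a6c at 122 ± 14.5, Ms4a6d at 97.7 ± 13.2, Ms4a6b at 50.5 ± 3.75 and Ms4a7 at 7.26 ± 2.22 CPM per kb. In Kaede-red 72h cells Ms4a4c was at 111 ± 22.6, Ms4a6c at 79.5 ± 12.2, Ms4a6d at 64.4 ± 13.9, Ms4a6b at 20.7 ± 5.18 and Ms4a7 at 10.5 ± 2.05 CPM per kb. Again the ranges of Ms4a6c and Ms4a6d met, with Ms4a6c above Ms4a6d within each library.

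Other genes of the family were counted from the same files, and they too were named with earlier results of these data known. Their adjusted p-values are given as descriptions. Of 13 rows of this kind, with the related genes Tmem176a and Tmem176b included, 5 passed the filter. Over both times 2 of these were called, both lower, where 10.3% of all tested genes were called lower. Ms4a4b, known mainly from T cells, was at 36.2, 26.2, 44.3 and 43.8 CPM in Kaede-green 24h and at 23.0, 29.4, 29.6 and 23.7 CPM in Kaede-red 24h libraries. At 72h it was at 26.3, 37.6, 32.6 and 33.3 CPM in Kaede-green and at 17.7, 23.1, 23.7 and 10.8 CPM in Kaede-red libraries, without overlap. With both times pooled it fell by 0.66 on the log2 scale (standard error 0.16, edgeR adjusted p = 0.00287) and by 0.80 at 72h (adjusted p = 0.0120; 0.0676 without Kaede-red 72h replicate 4). Ms4a4d, with 1 to 23 reads per library, was lower by a log2 fold change of -1.88 in the pooled comparison (standard error 0.48, edgeR adjusted p = 0.00494). With the Rn45s share as a covariate neither passed over both times, at log2 fold changes of -0.26 for Ms4a4b (edgeR adjusted p = 0.838) and -1.5 for Ms4a4d (adjusted p = 0.536). Ms4a8a (2.47 to 9.01 CPM), Tmem176a (0.366 to 4.08 CPM) and Tmem176b (3.65 to 13.7 CPM) did not pass the test over both times, with adjusted p-values of 0.729, 0.628 and 0.351. Tmem176b was at a log2 fold change of -0.19 at 24h and of 0.83 at 72h (standard error 0.32, edgeR adjusted p = 0.0702). At 72h it was called in some other settings, among them no filter on low counts (0.984) and scaling to counts outside Rn45s, Lars2 and Mir6236 (1.02). The remaining 8, among them Ms4a1 with at most 9 reads, Ms4a2 with at most 5 and Ms4a3 with at most 3 in any library, were not tested. A count of 0 allows up to 1.67 CPM in the shallowest and 0.0632 CPM in the deepest library (3 counts, counting error only).

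In the genome, the tested member and non-member Ms4a genes from Ms4a4c to Ms4a6d were all lower in Kaede-red cells after TMM scaling, and Ms4a7, their neighbour on the other side of Ms4a4c, was not. Within the cluster 2 tested genes are not of the family. AW112010 fell by 0.55 (standard error 0.18, edgeR adjusted p = 0.0265), and Gm8369 was at -0.50 with an adjusted p of 0.488. Among 14 tested genes within 500 kb on either side, 2 were called higher and 1 lower, where 10% and 10.3% of all tested genes were. Their median log2 fold change was 0.14, with a range from -0.96 to 0.87. This window was chosen after the values were seen.

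**Figure D4:**
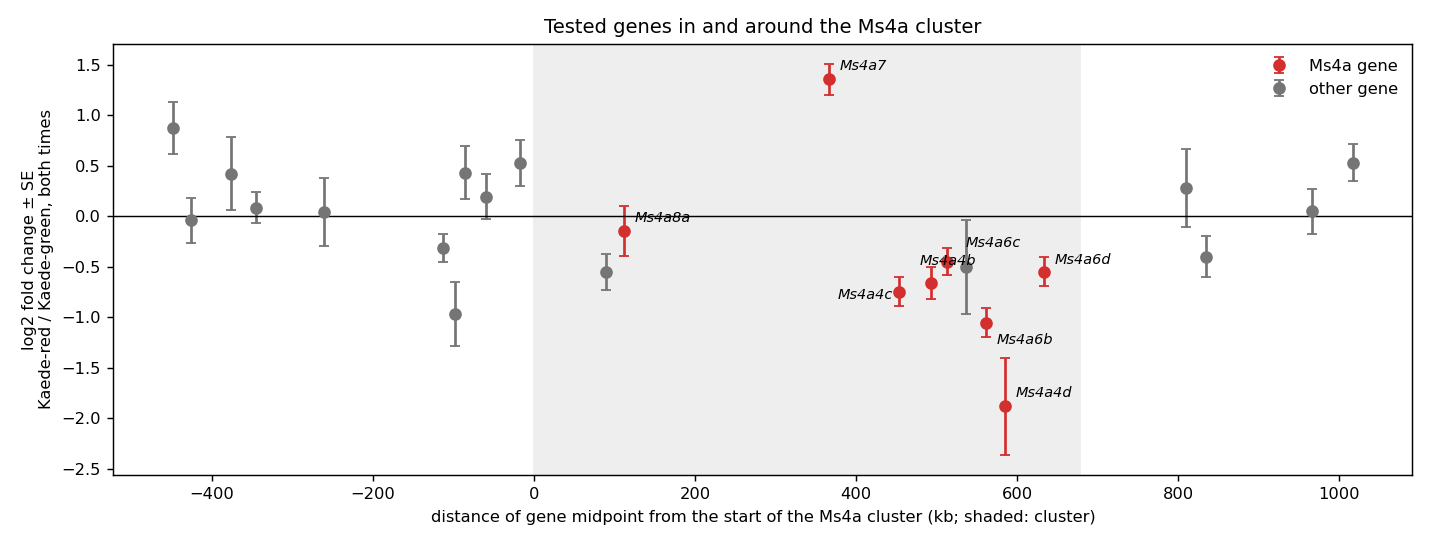
Log2 fold change, with its standard error as bar, of Kaede-red over Kaede-green cells over both times for each tested gene against the distance of its midpoint from the start of the Ms4a cluster in kb; red points are Ms4a genes, grey points other genes, and the shaded span is the cluster. Ms4a7 is at 1.36, and the Ms4a genes to its right are between -0.45 and -1.88.

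Genes tied to some Ms4a proteins were followed next. Whether the measured members take part in these ties was not examined. This list too was chosen with earlier results of these data known, so its adjusted p-values are given as descriptions. Tyrobp, which encodes the adaptor of Trem2 and related receptors, was at 168, 159, 133 and 83.4 CPM in Kaede-green 24h and at 61.9, 55.1, 64.4 and 55.2 CPM in Kaede-red 24h libraries. At 72h it was at 72.0, 87.3, 97.1 and 115 CPM in Kaede-green and at 42.9, 55.3, 52.3 and 35.5 CPM in Kaede-red libraries. With both times pooled it fell by 1.10 on the log2 scale (standard error 0.15, edgeR adjusted p = 1.48e-06), with no overlap among 16 libraries. Clec7a, pooled over the times, fell by 0.48 (standard error 0.13, edgeR adjusted p = 0.00905) and by 0.75 at 72h (standard error 0.19, adjusted p = 0.00474), where Kaede-green libraries were at 68.0, 77.9, 59.6 and 81.4 CPM and Kaede-red libraries at 33.6, 48.0, 49.0 and 40.3 CPM. Syk, the kinase that dectin-1 signals through, was at 22.7, 12.8, 14.6 and 19.8 CPM in Kaede-green 72h and at 33.1, 29.9, 31.5 and 34.5 CPM in Kaede-red 72h libraries. It rose by 0.89 (standard error 0.22, edgeR adjusted p = 0.00337) at 72h and was at -0.09 at 24h (adjusted p = 0.874). Trem2 was low, with 0.255 to 9.80 CPM, and Fcer1g and Card9, an adaptor of the Syk pathway, had adjusted p-values of 0.866 and 0.766 over both times, as against 0.214 for Trem2. Of the 6 linked genes, 2 were called lower and none higher over both times, where 10.3% and 10% of all tested genes were. Their median log2 fold change over both times was -0.07, beside 0.06 over all tested genes. By time, Fcer1g was at -0.28 at 24h and 0.37 at 72h, Trem2 at 1.04 and 0.04, and Clec7a at -0.21 at 24h. None of these values was called. At 72h, 1 linked gene was called higher and 2 lower, where 777 and 845 of the 9642 tested genes were. With the Rn45s share as a covariate, the log2 fold changes of Tyrobp were -1.13 over both times (edgeR adjusted p = 0.0131) and -1.04 at 72h (adjusted p = 0.102), and those of Clec7a -0.47 (adjusted p = 0.443) and -0.74 (adjusted p = 0.306), close to the values without it. Syk was at 0.48 at 72h with the covariate (edgeR adjusted p = 0.719) and at 0.43 after thinning to equal depth (adjusted p = 0.365).

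**Figure D5:**
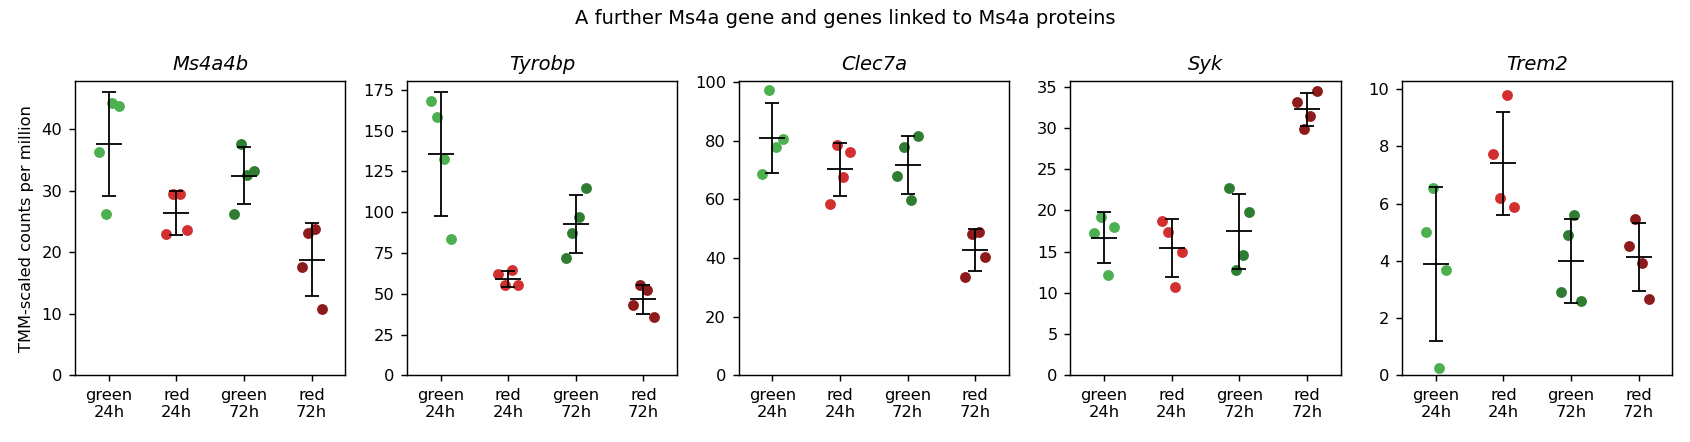
TMM-scaled CPM of Ms4a4b, Tyrobp, Clec7a, Syk and Trem2 in each of 16 libraries, by Kaede colour and hours after photoconversion; points are libraries, and lines with bars are the mean ± SD of 4 libraries. Tyrobp is lower in every Kaede-red than in every Kaede-green library, and Syk is highest in Kaede-red 72h (29.9 to 34.5 CPM).

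Patterns were compared as Pearson's r of log2 CPM over the 16 libraries, which share their depth, their Rn45s share and their groups, and r is given as a description. Ms4a4c, Ms4a6b and Ms4a6d ran together, with r of 0.959 for Ms4a4c and Ms4a6b, 0.962 for Ms4a4c and Ms4a6d and 0.925 for Ms4a6b and Ms4a6d. Ms4a6c had r of 0.813 to 0.926 with these 3 genes. Ms4a7 had r of -0.444 to -0.291 with the other members, but 0.238 to 0.709 once the group means were removed. Among 1386 other genes with a mean log2 CPM of at least 4, those most like Ms4a7 were Lair1, an inhibitory receptor for collagen (r = 0.908), Snx5, a sorting nexin (0.906), and Id2, an inhibitor of helix-loop-helix factors (0.869). After removal of the group means these were at 0.331, 0.488 and 0.416. Those most like Ms4a4c were Rps19, Rps21 and Rps3, with r of 0.976, 0.970 and 0.969. Ms4a6b was nearest to Rps3, Tmsb4x and Rpl37 (0.983, 0.980 and 0.979), Ms4a6d to Rpl32, Rps20 and Ppp1ca (0.958, 0.957 and 0.955), and Ms4a6c to Mrpl52, Atp5f1 and Serf2 (0.949, 0.946 and 0.942).

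Since ribosomal protein genes stood out in these lists, all 84 rows of that kind were counted afterwards. Of 80 tested, 70 were called lower in Kaede-red cells over both times and 0 higher, with a median log2 fold change of -1.01, at 24h 57 lower and 1 higher (median -0.94), and at 72h 66 lower and 0 higher (median -1.27). The mean log2 CPM of these genes had r of 0.96, 0.978, 0.897 and 0.932 with Ms4a4c, Ms4a6b, Ms4a6c and Ms4a6d and of -0.507 with Ms4a7 over the 16 libraries, and r of 0.858, 0.876, 0.638, 0.934 and 0.508 after removal of the group means. The falls of Ms4a4c, Ms4a6c and Ms4a6d at 72h were smaller than the median of the ribosomal protein genes and that of Ms4a6b about equal to it. The part of this shared movement in the members' differences was not tested.

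Markers of cell types moved with the colours too. The 10 macrophage markers, among them Adgre1, Csf1r and C1qa, were all tested, and their summed level was 302 to 524 CPM in Kaede-green 24h, 574 to 935 CPM in Kaede-red 24h, 382 to 489 CPM in Kaede-green 72h and 884 to 994 CPM in Kaede-red 72h libraries. In Kaede-red cells the median of this sum was 953 CPM at 72h and 805 CPM at 24h, with overlapping ranges. Its most abundant gene was Apoe in Kaede-red 72h and Fcgr1 in each other group, so the sum weighs different genes at the times. The 8 monocyte markers, among them Ly6c2, Ccr2 and Plac8, summed to 1090 to 1737 CPM, 569 to 682 CPM, 830 to 1227 CPM and 646 to 884 CPM in the same order. Of the other lists, fibroblast markers (7 genes, 4 tested) summed to at most 55.2 CPM and were lower in Kaede-red 72h (12.5 to 19.5 CPM) than in Kaede-green 72h libraries (46.1 to 51.5 CPM), whereas endothelial markers (4 genes, 3 tested) were higher, with 21.9 to 36.7 CPM in Kaede-red 72h and 9.77 to 19.2 CPM in Kaede-green 72h libraries. Neutrophil markers (9 of 10 with a row, 2 tested, with Ngp at 0 in every group) were also higher, with 17.8 to 23.3 CPM and 10.4 to 12.2 CPM in the same groups. Csf3r was the most abundant gene of this sum in every group. Camp was at 0 in Kaede-red 72h as well, and Camp, Ltf and Retnlg were at 0 in the Kaede-green groups. Sums reached at most 12.8 CPM for dendritic cell markers (8 genes, 3 tested), 8.73 CPM for T or NK cell markers (8 of 9, 2 tested) and 9.68 CPM for erythroid markers (5 genes, 2 tested). Sums of B cell markers were at most 2.45 CPM (5 of 6, 1 tested, with Ms4a1 and Pax5 at 0 in Kaede-green 24h), those of mast cell or basophil markers 1.23 CPM (7 genes), of eosinophil markers 1.64 CPM (5 genes) and of tumour epithelial markers 3.68 CPM (5 genes). The summed macrophage markers were thus above 0 in every library, as were the summed monocyte markers. In both Kaede-green groups the monocyte sum was above the macrophage sum in every library, though the lists hold different genes. The part of cell composition in the members' values was not tested.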

How the data were processed

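Per the labels and the study's methods, 5 ng of total RNA per library was made into stranded total RNA libraries with a SMARTer pico kit and sequenced with paired reads. The authors used Trim Galore for trimming, HISAT2 for alignment to the mm10 build and featureCounts for counting. Versions and the annotation are not given in the sources used here, and the labels and methods name different RNA kits. The deposited values are whole-number counts per gene for 16 libraries, and the combined table held the same values as the single files. The chi-square statistic per gene was 2.91 to 82.1 over 24 replicate pairs, so no library was a copy.

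Here, counts were fitted with edgeR 4.0.16 (R 4.3.3) on the 9642 genes kept by filterByExpr, with TMM scaling and the quasi-likelihood test on group means, and p-values were adjusted by Benjamini-Hochberg over all tested genes (threshold 0.05). A prior count of 2 went into log2 CPM. The script was tested on simulated counts. The alternatives were DESeq2 1.42.0, RLE factors, library size only, other filters, only the groups compared, a replicate block, the Rn45s share as covariate, thinning, leaving out each library and, chosen after seeing the data, scaling to counts outside Rn45s, Lars2 and Mir6236. Coding sequences were aligned with MAFFT 7.526. Named were the members, all other Ms4a rows with Tmem176a and Tmem176b, 6 linked genes and the 3 genes most like each member. Members and lists were chosen with earlier results of these data known. Some marker genes are not reported here by name.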

Additional observations from a re-analysis of the deposited data

Results flagged for a closer look

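Ms4a7 in Kaede-green 72h replicate 1, at 17.5 CPM, stood apart from the other 3 libraries of its group, which were at 36.9 to 37.9 CPM. Its value rested on 48 reads. Without this library the log2 fold change of Ms4a7 at 72h was 0.316 in place of 0.517, and that from 24h to 72h in Kaede-green cells 0.791 in place of 0.613. Tmem176b in Kaede-red 24h replicate 4, at 6.27 CPM, was below the other 3 libraries of that group. Of 52 pairs of a gene and a group examined in this way, about 1 in 20 would be marked by chance.

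For Ms4a7, the colour difference was smaller at 72h than at 24h, by -1.68 on the log2 scale in the interaction term of the fit of all genes. The range over leaving out each library was -1.87 to -1.58. The gene was chosen with these values known, so this is a description.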

How the results depend on the processing

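Under DESeq2 and under RLE factors, the 42 log2 fold changes followed stayed within the replicate spread (members) or on their side of the threshold (other genes). The exception in sign was Ms4a6c with time in Kaede-green cells (-0.014 and -0.0122 in place of 0.0137). Under library size only, 24 of 42 changed sign. For the pooled times, 24h and 72h, in this order, these were 1.35, 1.60 and 1.09 for Ms4a4c, 1.04, 1.44 and 0.647 for Ms4a6b and 0.962, 1.08 and 0.845 for Tyrobp. Over both times and at 72h they were 1.68 and 1.35 for Ms4a6c, 1.54 and 1.30 for Ms4a6d, 1.46 and 1.08 for Ms4a4b and 1.62 and 1.19 for Clec7a, and over both times 0.00145 for Ms4a4d. The others, not called in the fit reported, were 2.02 for Ms4a6c and 1.79 for Ms4a6d at 24h, 0.368 for Ms4a4c, 0.377 for Ms4a6b and 0.365 for Ms4a6d with time in Kaede-green cells and 0.0313 for Ms4a6c with time in Kaede-red cells. This scaling carries the Rn45s share. After thinning, 4 of 40 values moved beyond the replicate spread, away from 0 (Ms4a6b to -1.62 at 72h, -0.767 for the changing colour difference and -1.07 with time in Kaede-red libraries, and Ms4a6d to -0.857 at 72h). Thinning also ended the calls of Ms4a4b over both times (-1.01) and at 72h (-1.5), of Clec7a with time in Kaede-red cells (-0.712) and of Syk at 72h (0.428), and no filter those of Clec7a over both times (-0.363), at 72h (-0.604) and with time in Kaede-red cells (-0.641). Low counts limit Ms4a4d, Tmem176a, Card9 and Trem2, each with 1 or 2 reads in some library.

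Genes called over both times (1959) became 9328 under library size only, 156 with the Rn45s share as covariate (51 higher, 105 lower) and 824 after thinning (303 higher, 521 lower). At 24h (723) they became 9054, 206 and 238, and at 72h (1622) 8134, 101 and 642. Calls for time in Kaede-green cells (0) became 13 with DESeq2, 36 under library size only and 37 with no filter. For time in Kaede-red cells (837) they became 1263 with DESeq2, 9 under library size only, 1604 with only the groups compared, 110 with the covariate and 190 after thinning. For the change of the colour difference (73) they became 156 with at least 10 counts in every library, 321 with DESeq2, 1 under library size only, 216 with no filter, 34 with the covariate and 2 after thinning. Thinning tested fewer genes at lower depth, the covariate went largely with the colours, and otherwise the cause was not tested. Leaving out each library gave 0 to 2 calls for time in Kaede-green cells (1 without replicate 1 or 2 and 2 without replicate 4 of Kaede-green 72h). For time in Kaede-red cells it gave 280 to 1108 calls, with 280, 537 and 394 when replicates 1, 2 and 4 of Kaede-red 72h were left out and 296 and 328 when replicates 3 and 4 of Kaede-red 24h were. For the change of the colour difference it gave 2 to 155 calls. These were 6, 13 and 126 without replicates 2, 3 and 4 of Kaede-green 24h, 18 and 20 without replicates 2 and 3 of Kaede-green 72h, 155, 2 and 5 without replicates 1, 3 and 4 of Kaede-red 24h, and 6, 11, 40 and 24 without replicates 1 to 4 of Kaede-red 72h.

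Same-numbered Kaede-green and Kaede-red libraries had correlated deviations of only -0.0183 to 0.153, and not every library correlated best with its own number, so the numbers were not taken to pair them. With a replicate block the calls were 1784 over both times, 700 at 24h, 1562 at 72h and 165 for the change of the colour difference. Among the genes followed, the block ended the call of Ms4a4d at 72h (-2.08, edgeR adjusted p = 0.0802), and Tmem176b at 72h was called with it (0.913, adjusted p = 0.0282).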

Other observations

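Among members, calls that single libraries ended were those of Ms4a4c at 24h (called in 9 of 16 fits, -0.781 to -0.577; ended without replicates 1, 2 or 3 of Kaede-green 24h, 1, 2 or 4 of Kaede-red 24h or 2 of Kaede-red 72h), Ms4a6b at 24h (without Kaede-red 24h replicate 1, -0.731) and from 24h to 72h in Kaede-red cells (without Kaede-red 24h replicate 3 or Kaede-red 72h replicates 1 or 4, -0.741 to -0.653), Ms4a6c at 72h (without Kaede-green 72h replicate 2 or Kaede-red 72h replicates 1 or 4, -0.594 to -0.522), Ms4a6d at 72h (without Kaede-green 72h replicates 2, 3 or 4 or Kaede-red 72h replicates 1 or 4, -0.583 to -0.493) and the change of Ms4a7 (without Kaede-red 24h replicate 3, -1.60). With no filter, and scaled to counts outside Rn45s, Lars2 and Mir6236, the calls also ended of Ms4a6c over both times (-0.335 and -0.253) and at 72h (-0.472 and -0.457), of Ms4a6d at 72h (-0.461 and -0.437) and of Ms4a4c at 24h (-0.586 and -0.429). Thinning ended those of Ms4a4c at 24h (-0.697) and of the change of Ms4a7 (-1.82). Calls gained were those of Ms4a7 at 72h with no filter (0.664), under that scaling (0.691), with at least 10 counts in every library (0.519) and under library size only (2.42), of Ms4a4c and Ms4a6d over time in Kaede-red cells with DESeq2 (-0.587 and -0.529), with at least 10 counts (-0.613 and -0.553) and under the scaling outside Rn45s (-0.605 and -0.546), and of Ms4a6d at 24h with DESeq2 (-0.507) and without Kaede-green 24h replicate 4 (-0.632).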
